A study of Caenorhabditis elegans with 22 samples.

Results

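F39E9.1, Y46D2A.2, pmp-2, chil-22, T05E12.6, cst-2, irld-53, C25F9.10 and Y105C5A.24 are 9 loci of Caenorhabditis elegans, out of 46780 genes in the small RNA tables. They were chosen by their small RNA gain over wild type (WT), which was among the largest in the double mutant adr-1;adr-2 or in the triple mutant adr-1 eri-6;adr-2. The small RNA values of both mutants and WT are therefore a description and are given without a test. The eri-6 small RNA libraries, the total RNA and the mRNA did not enter the choice, but eri-6 small RNA is set against the same WT libraries that did.

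ADAR enzymes change adenosine to inosine in double-stranded RNA, which alters its pairing. In C. elegans adr-2 encodes the active deaminase, and adr-1 encodes a relative that binds RNA and directs editing. Double-stranded RNA that is left unedited can be cut by Dicer (dcr-1, with the binding protein RDE-4 and the RIG-I-like helicase DRH-1), and RNA-dependent RNA polymerases then copy the target into secondary small interfering RNA. ERI-6/7 is a helicase of the pathway of the Argonaute ERGO-1, and the Argonaute NRDE-3 takes secondary small RNA into the nucleus.

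The study sequenced small RNA (8 libraries), ribosome-depleted total RNA (8) and poly(A) mRNA (6) of whole gravid young adults, grown at 20 °C until 70 h past the L1 arrest. The small RNA was selected at 18 to 28 nt and treated with a 5′ polyphosphatase, so that RNA with a 5′ triphosphate could be cloned. Its deposited values are per gene, with no length or strand, and are therefore called small RNA.

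For small RNA, the first adr-1;adr-2 replicate was strain BB4, adr-1(gv6); adr-2(gv42), and the second was BB21, adr-1(tm668); adr-2(ok735). The eri-6 libraries were both GR1814, eri-6(mg379). The triple mutant adr-1 eri-6;adr-2 was GR1744, which joins mg379 to the gv6 and gv42 alleles. The first WT replicate was GR1831, which carries the transgene mgIs30, and the second was N2. Replicate, strain and allele pair therefore cannot be told apart in adr-1;adr-2, and replicate and transgene cannot be told apart in WT. In total RNA each genotype has 2 libraries. Its adr-1;adr-2 samples are labelled BB4 with the alleles tm668 and ok735, a pairing that the small RNA labels give to BB21, and its WT is N2. The mRNA came from GR1744 and N2 fed bacteria making double-stranded RNA against drh-1, against nrde-3 or from the empty control vector, with 1 library each. Where the replicates of a group share a strain, they are not said to come from separate cultures, so their spread may be technical.

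Total reads per library, recovered from the deposited values, were 32303754 and 15417839 in the double mutant, 29683818 and 10904105 in eri-6, and 25690179 and 12446099 in WT. The triple mutant's small RNA table holds 381 selected genes, 6 of the 9 loci among them, so its depth is unknown. Among the mutated genes, total RNA of eri-6 was 5.35 FPKM in eri-6 and 5.73 FPKM in the triple mutant, against 17.8 FPKM in WT, and the deposited bounds did not overlap those of WT. Poly(A) mRNA of adr-1 was 17.7 FPKM in the triple mutant and 23.8 FPKM in WT on control bacteria. The drh-1 label was not borne out by its target: drh-1 mRNA was 65.4 FPKM in the triple mutant library labelled drh-1 RNAi and 19.02 FPKM in its control library, and 32.3 FPKM and 14.3 FPKM in the matching WT libraries. The nrde-3 mRNA was 8.08 FPKM in the triple mutant on nrde-3 RNAi and 15.4 FPKM on control bacteria, but 5.26 FPKM and 5.75 FPKM in WT.

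F39E9.1 and Y46D2A.2 had the most small RNA of the list in both adr-1;adr-2 libraries. F39E9.1 (WBGene00018194) is a pseudogene at II:3318302-3320358 (build WBcel235), and Y46D2A.2 (WBGene00021590) is a protein-coding gene at II:3321130-3323279, 771 bases away. In adr-1;adr-2, F39E9.1 had 10972 and 23045 normalised reads, against 7.13 and 148 in WT. In the triple mutant it had 8471 and 16046, against 8.36 and 176 for the same WT libraries as scaled in that table. Every mutant library lay far above both WT libraries although the WT libraries differed from each other, with N2 the higher and a mean of 77.8 ± 99.96 (SD, n = 2).

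The neighbour Y46D2A.2 followed it closely. Its normalised reads were 11224 and 22510 in the double mutant and 8750.5 and 14357 in the triple mutant, against 9.80 and 164 in WT. As above, each mutant is given as scaled in its own table and WT as in the table of the double mutant, and the triple mutant's table put the same WT libraries at 11.5 and 194. The mean log2 fold (on normalised reads + 1, adr-1;adr-2 minus WT) was 8.83 for F39E9.1 and 8.56 for Y46D2A.2. Within replicate numbers the F39E9.1 value was 10.40 between BB4 and the transgene strain and 7.27 between BB21 and N2. Without N2 the log2 folds were 10.93 for F39E9.1 and 10.52 for Y46D2A.2, and without the transgene strain 6.73 and 6.59. The ratio of F39E9.1 to Y46D2A.2 reads was 0.978 and 1.02 in the double mutant and between 0.619 and 0.905 in the eri-6 and WT libraries. Whether reads that match both loci were counted at each was not tested.

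The pmp-2 locus (WBGene00004059, II:6884040-6887805) encodes a relative of the ABC transporters of the peroxisomal membrane. It had 942 and 636 normalised reads in adr-1;adr-2 and 810.2 and 614 in the triple mutant, against 5.35 and 11.3 in WT. The groups stood apart, with both mutants at a similar level, and the log2 fold for adr-1;adr-2 was 6.45. For the chitinase-like gene chil-22 (WBGene00011166, II:9464471-9466195) the values were 214 and 482 in the double mutant and 331 and 356 in the triple mutant, against 1.78 and 4.24 in WT. Its log2 fold was 6.40, and its WT values stand for 2 and 3 reads.

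At T05E12.6 (WBGene00011487, V:17085002-17089442) the libraries of each genotype lay close together. Its values were 441 and 586 in the double mutant, 658 and 616 in the triple mutant, and 8.02 and 7.07 in WT, a log2 fold of 5.90. The short protein-coding gene C25F9.10 (WBGene00044291, V:19405726-19406394) had 253 and 162 normalised reads in the double mutant, against 2.67 and 1.41 in WT, a log2 fold of 6.09. The kinase gene cst-2 (WBGene00016038, X:4333057-4336050), of the STE20-like family that includes the Hippo kinases, had 2700.3 and 4413 in the double mutant and 24.1 and 146 in WT. Its log2 fold was 5.83, and N2 was again the higher WT library, so that the fold was 7.11 without N2 and 4.56 without the transgene strain. Neither C25F9.10 nor cst-2 was analysed in the triple mutant's small RNA.

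At irld-53 and Y105C5A.24 the adr-1;adr-2 libraries disagreed. The gene irld-53 (WBGene00021222, V:2348215-2350325) belongs to a nematode family with an insulin/EGF-receptor L domain. It had 2842 normalised reads in BB4 and 55.7 in BB21, against 1.78 and 5.66 in WT. Both lay above WT, by log2 folds of 10.00 and 3.09 within replicate numbers, and the SD of 1970 exceeded the mean of 1449. The irld-53 log2 fold was 6.54 with both, 9.37 without BB21 and 3.72 without BB4. Y105C5A.24 (WBGene00013643, IV:15849875-15852905) had 5590.2 in BB4 but 22.7 in BB21, below the 64.2 and 72.1 of WT. In the triple mutant, which carries the alleles of BB4, it had 8781 and 9285, against 75.3 and 85.3 in WT. Its log2 fold was 2.4 in adr-1;adr-2 and 6.80 in the triple mutant, and without BB4 the adr-1;adr-2 value was -1.54.

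**Figure D1:**
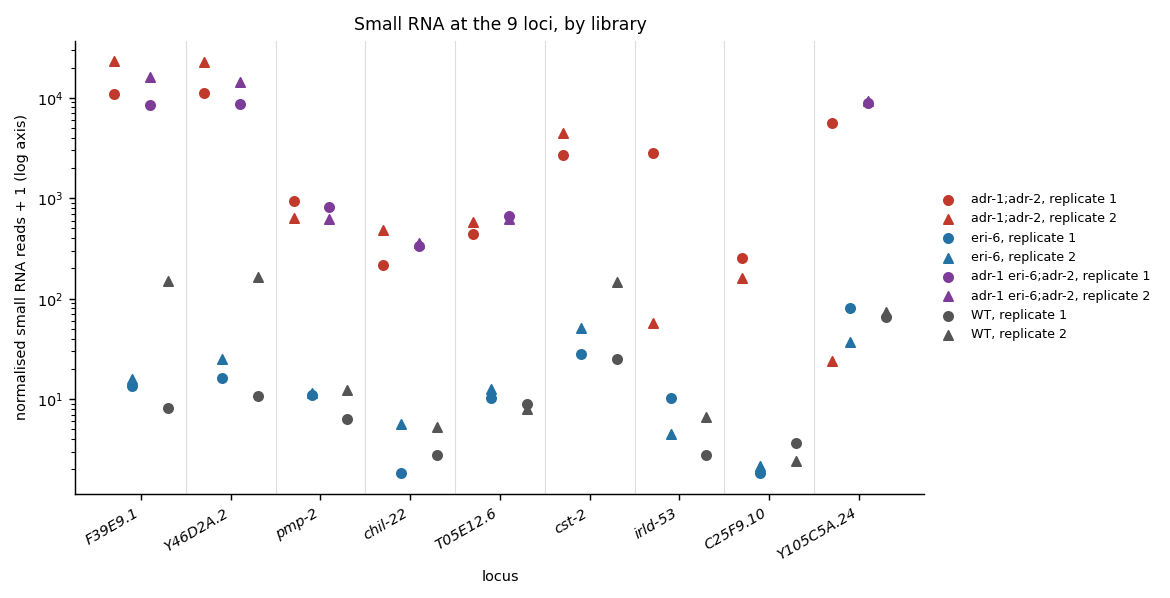
Normalised small RNA reads + 1 (log axis) at the 9 loci in each library of adr-1;adr-2, eri-6, adr-1 eri-6;adr-2 and WT, with circles for replicate 1 and triangles for replicate 2, each mutant as scaled in its own table and WT as in the adr-1;adr-2 table. Mutants without ADARs stand above WT except for the second adr-1;adr-2 library at Y105C5A.24 (22.7 normalised reads), and eri-6 lies near WT; cst-2, irld-53 and C25F9.10 have no triple mutant points.

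Single-library differences of that kind were not limited to the list. Of 23975 genes with a mean of at least 10 normalised reads, 23 lay at least 16-fold above both WT libraries in BB4 and under 4-fold in BB21, Y105C5A.24 among them. In the other direction, 103 were high in BB21 and not in BB4. The triple mutant's table held 6 of the 23, and 5 of these were at least 4-fold above both WT libraries in both triple mutant libraries. It held 4 of the 103, and 0 of these were. Of the 374 testable genes in that deposited selection, 24.1% were. Since it is a selection set against the same WT libraries, nothing is read from these counts.

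By a rule that every mutant library be at least 4-fold above every WT library, 8 of the 9 loci were higher in the double mutant, all but Y105C5A.24, where 0.617% of the 23975 genes were. Lower by the same rule were 0 of the loci and 0.0751% of genes. In the triple mutant 6 of 6 were higher, where 24.1% of the 374 testable genes of the deposited selection were higher and 11.2% lower. Since these values chose the loci, nothing is read from the counts. By mean log2 fold in the double mutant the list held ranks 1, 2, 4 to 8 and 10, and Y105C5A.24 was at rank 377. Genes outside the list in the same range were fbxc-5 (6.56), which held rank 3, and fbxc-3 (5.88), which held rank 9, while clec-25 (5.75) and irld-35 (5.74) came next below cst-2.

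Per kilobase of gene span the loci differed widely. Small RNA density was 234 and 639 reads per kb per 1000000 library reads at F39E9.1 in the double mutant, ranks 57 and 78 of 22967 genes of at least 200 bases, against 0.151 and 4.10 in WT. At Y46D2A.2 it was 229 and 597, against 0.199 and 4.33. The density of cst-2 was 39.5 and 84.1 in the double mutant, against 0.351 and 2.76 in WT. At the low end, T05E12.6 had 4.35 and 7.52, against 0.0789 and 0.0905, ranks 3132 and 3581 in the double mutant. By the gain in mean density, F39E9.1 was rank 5 and Y46D2A.2 rank 7, cst-2 was 109, and the other loci lay between 163 and 728. Together the 9 loci took 0.154% and 0.296% of reads in the double mutant, against 0.000545% and 0.00318% in WT.

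In eri-6 the small RNA of 8 loci lay below both adr-1;adr-2 libraries, and that of Y105C5A.24 lay below BB4 but above BB21. F39E9.1 had 12.6 and 15.0 normalised reads in eri-6, against 6.75 and 133 in WT as scaled in that table. For cst-2 the values were 26.9 and 49.7 in eri-6 and 22.8 and 131 in WT, and for Y105C5A.24 80.6 and 35.8 in eri-6 and 60.7 and 64.7 in WT. The eri-6 libraries overlapped WT at 7 loci. T05E12.6, at 9.24 and 11.6 in eri-6 and 7.59 and 6.34 in WT, lay just above, and C25F9.10, at 0.840 and 1.16 in eri-6 and 2.53 and 1.27 in WT, just below, with 1 read in each eri-6 library.

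In limma, fitted on log2 of normalised reads + 1 over 23380 genes, 0 of the 4 loci that passed the minimum mean of 10 were called in either direction, where 0.0% of all genes were called higher and 0.0% lower. Since the WT libraries helped to choose the loci, the count is a description, and no p is given for them. The log2 folds (eri-6 minus WT) were -1.13 ± 1.52 (SE) for F39E9.1, -0.95 ± 1.41 for Y46D2A.2, -0.57 ± 1.09 for cst-2 and -0.22 ± 0.85 for Y105C5A.24. The other 5 loci were under that minimum. Over all genes, at an unadjusted p under 0.05, limma gave 62 genes higher and 175 lower, and edgeR gave 247 in all with 0 after adjustment. After adjustment, where limma and edgeR called 0 genes, DESeq2 called 15 higher and 125 lower. The signs at F39E9.1, Y46D2A.2 and cst-2 rest on the N2 library, since without it the folds were 0.93, 0.97 and 0.66. By the 4-fold rule, which has the same minimum mean, 0 of these 4 loci were higher or lower in eri-6. Of all genes tested 0.0984% were higher and 0.672% lower. The other 5 loci could not be called by this rule.

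At some loci the next gene also had more small RNA. Beside T05E12.6, the chemoreceptor gene srh-237, 936 bases away, had 34 and 51 reads in the double mutant, 0 and 4 in eri-6, and 2 and 2 in WT. C25F9.5, 1317 bases from C25F9.10, had 553 and 383 reads in the double mutant, 11 and 6 in eri-6, and 6 and 7 in WT. The C-type lectin gene clec-209, 1350 bases from irld-53, had 2114 reads in BB4 and 65 in BB21, against 7 and 21 in WT. The pseudogene R09D1.9, 377 bases from chil-22, showed the opposite, with 47 reads in BB4 and 1175 in BB21, against 1 and 8 in WT.

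Of these 4 genes srh-237 and C25F9.5 met the 4-fold rule, and clec-209 and R09D1.9 did not.

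Apart from F39E9.1 and Y46D2A.2, which flank each other, no other neighbour met it. Only 4 of those that did not are given here. Reads at acer-1, on one side of pmp-2, were 175 and 204 in the double mutant, 138 and 246 in eri-6, and 178 and 229 in WT. The next gene after chil-22, chil-23, had 3 and 7 in the double mutant and 3 and 1 in WT. Y46D2A.1, which overlaps Y46D2A.2, had 83 and 448 reads in the double mutant, against 89 and 98 in WT. On the side of C25F9.10 away from C25F9.5, C25F9.6 had 2 and 2 reads in the double mutant and 4 and 4 in WT.

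Within 15 kb on either side, 7 of the 9 loci had at least 1 further gene that met the 4-fold rule in the double mutant. Of all genes tested 0.617% met it, but that is a share per gene, and these windows held 4 to 19 further genes. The share of such windows around other genes was not computed, so the 7 of 9 has no background. For F39E9.1 and Y46D2A.2 the further gene was the other of this pair, so both counts rest on the choice of loci. Around cst-2 there were 7 of 18, namely cst-1 and 6 short noncoding RNA genes between cst-2 and cst-1, F14H12.11 to F14H12.16. C25F9.10 had 3 of 17, C25F9.5, C25F9.4 and C25F9.9, which follow one another along the chromosome. Besides that pair, pmp-2, chil-22 and T05E12.6 had 1 each, and irld-53 (of 10) and Y105C5A.24 (of 4) had 0. Overlapping annotations, such as F14H12.11 and F14H12.12, lie over each other and are not separate observations.

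**Figure D2:**
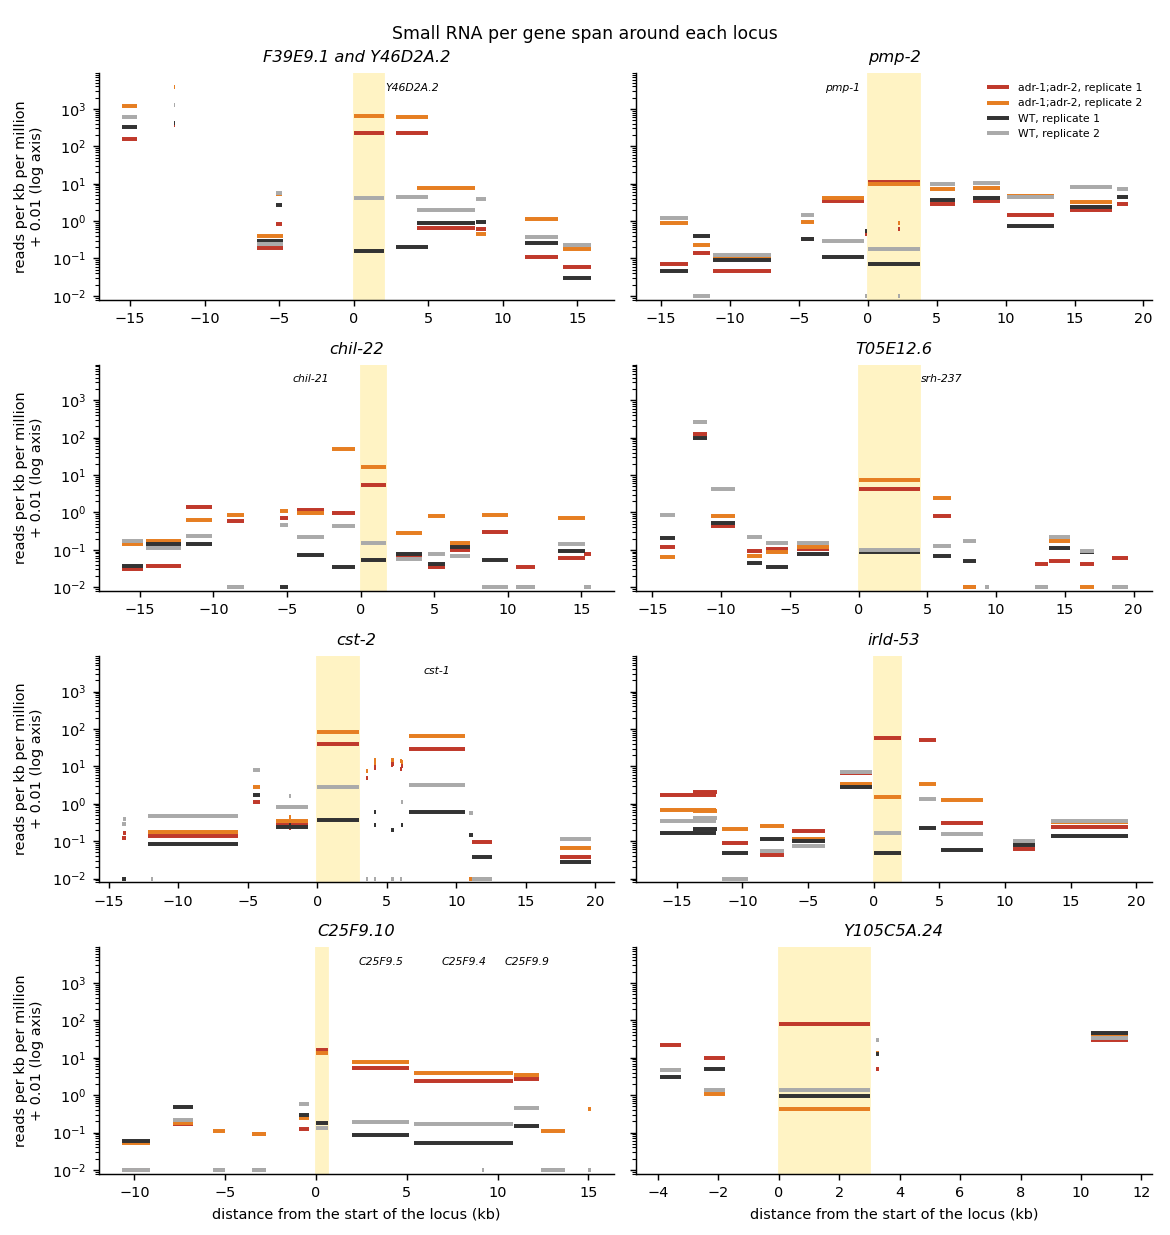
Small RNA density (reads per kb per 1000000 library reads, + 0.01, log axis) over the span of each annotated gene over 100 bases long within 15 kb of a locus, against the distance from the start of the locus (kb), for the adr-1;adr-2 and WT libraries; the locus is shaded and neighbours meeting the 4-fold rule are named, except the F14H12 noncoding genes. The gain covers F39E9.1 with Y46D2A.2, cst-2 with cst-1, and the 4 genes from C25F9.10 to C25F9.9, and at Y105C5A.24 it is seen in 1 library.

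For 4 loci a gene of the same family gained as well. The second family member in each case was pmp-1, chil-21, cst-1 or irld-35. Among family members with a mean of at least 10, the 4-fold rule was met by 2 of 4 pmp genes, 2 of 8 chil genes, 2 of 2 cst genes and 2 of 34 irld genes, where 0.617% of all genes tested met it. One gene in each count is the locus chosen by this value. In eri-6 0 met it. The gene cst-1 had 3837 and 3985 reads in the double mutant, 93 and 114 in eri-6, and 63 and 159 in WT. The ratio of cst-2 to cst-1 reads was 0.995 and 0.974 in the double mutant, while it was 0.344 and 0.377 in eri-6 and 0.429 and 0.648 in WT. The irld-35 gene (V:2456176-2458286) has the same span of 2111 bases as irld-53 and lies on the same chromosome. It had 4147 and 53 reads in the double mutant, 7 and 5 in eri-6 and 4 and 9 in WT, and so was high in the same library as irld-53. Whether the same reads were counted at both was not tested. The pmp-1 gene, beside pmp-2, had 339 and 189 reads in the double mutant, 6 and 9 in eri-6, and 8 and 11 in WT. The chil-21 gene had 67 and 28 in the double mutant, 9 and 5 in eri-6, and 3 and 5 in WT.

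The 5 genes outside the list whose small RNA was most like that of F39E9.1 over the 6 libraries, by Pearson correlation of scaled log2 values among 13907 genes, were nhr-84 (r = 0.9961), lfi-1 (0.9960), T24E12.10, F31E3.6 and F22D6.14. Their gains were smaller than that of F39E9.1. The nuclear receptor gene nhr-84, for example, had 1245 and 1141 reads in the double mutant, 258 and 177 in eri-6, and 218 and 226 in WT. In the list, r with F39E9.1 was 0.9998 for Y46D2A.2 and 0.9979 for cst-2, and only 0.734 for irld-53 and 0.445 for Y105C5A.24. The 6 points share 3 genotypes, so r is a description.

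Total RNA was lower in the mutants without ADARs at several of these loci. It was called where the deposited confidence bounds of mutant and WT did not overlap, in genes of at least 1 FPKM in either. What level these bounds have was not given in the sources used here. Each genotype's value is the authors' value pooled over its 2 libraries. Y46D2A.2, chil-22 and T05E12.6 were lower in the double mutant, which is 3 of 6 loci that reached 1 FPKM in the double mutant or WT, where 14.8% of 11560 genes were lower. In the triple mutant pmp-2 joined them, giving 4 of 6, where 18.4% of 11425 genes were lower. In eri-6 only T05E12.6 was lower, 1 of 6, where 7.39% of 11308 genes were. None was higher, where 21.1%, 12.6% and 21.6% of genes were higher in the double mutant, eri-6 and the triple mutant. The median log2 fold (on FPKM + 1) of the 6 was -0.79 in the double mutant, -0.12 in eri-6 and -1.05 in the triple mutant, against 0.13, 0.12 and 0.08 over all genes tested.

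Y46D2A.2 had the lowest total RNA relative to WT. It had 1.02 FPKM (bounds 0.294 to 1.74) in the double mutant and 0.430 (0 to 0.867) in the triple mutant, against 7.35 (4.95 to 9.76) in WT. Those are 0.138 and 0.0584 of the WT level. In eri-6 it had 4.53 FPKM (2.79 to 6.27), which overlaps WT. It was the only locus still called when bounds at least 2-fold apart were asked for.

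T05E12.6, the most abundant transcript of the list, had 71.7 FPKM (53.7 to 89.7) in the double mutant, 95.1 (71.4 to 118.8) in eri-6 and 59.2 (44.5 to 73.9) in the triple mutant, against 200.01 (147 to 253) in WT. All 3 mutants were below WT, eri-6 included, where small RNA at the locus was 9.24 and 11.6 normalised reads. For chil-22 the values were 1.83 FPKM (0.832 to 2.82) in the double mutant, 4.41 (2.71 to 6.11) in eri-6 and 1.66 (0.763 to 2.56) in the triple mutant, against 4.82 (2.91 to 6.74) in WT. The adr-1;adr-2 and WT bounds of chil-22 were only just apart.

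The pmp-2 transcript had 29.3 FPKM (21.9 to 36.7) in the double mutant, close to the 30.98 (23.1 to 38.9) of WT. It had 16.5 (12.2 to 20.9) in the triple mutant, which was below WT, and 51.7 (38.82 to 64.5) in eri-6, where the bounds just overlapped. F39E9.1 and C25F9.10 overlapped WT in all 3 mutants. F39E9.1 had 1.25, 1.37 and 0.498 FPKM in the double mutant, eri-6 and the triple mutant, against 1.54 in WT. C25F9.10 had 5.33, 7.31 and 3.65 FPKM in the same order, against 8.15 in WT. The cst-2 and irld-53 transcripts were under 1 FPKM in every genotype, at most 0.587 and 0.452, and total RNA of Y105C5A.24 was not analysed here.

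**Figure D3:**
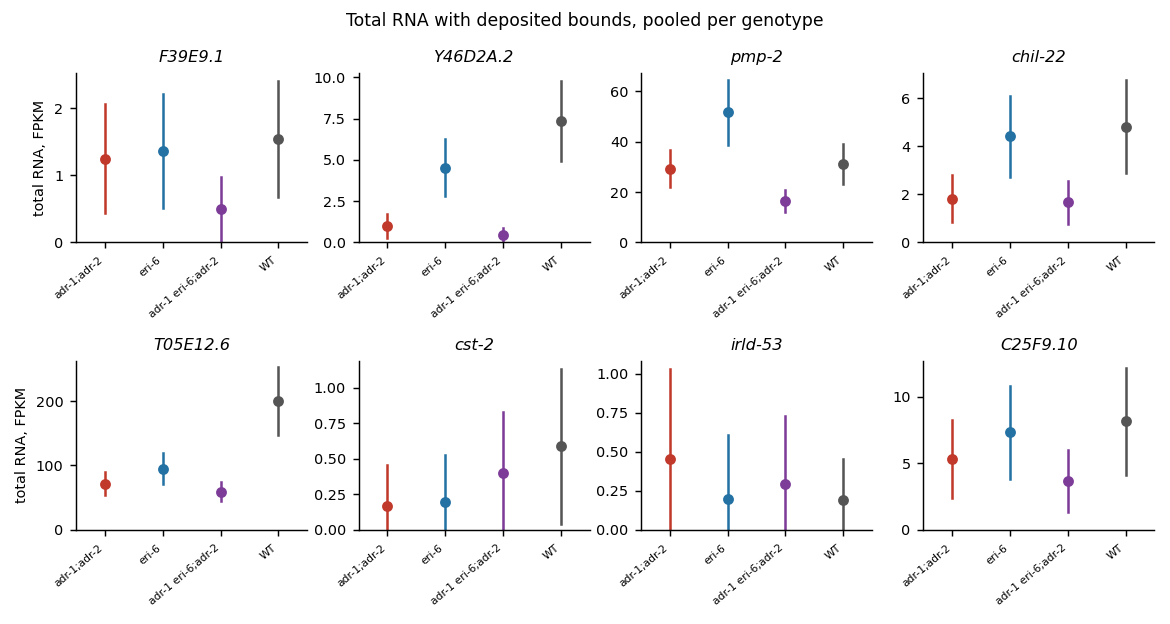
Total RNA (FPKM, linear axes from 0) of 8 loci in adr-1;adr-2, eri-6, adr-1 eri-6;adr-2 and WT, with points for the authors' value pooled over 2 libraries and lines for the deposited bounds. Y46D2A.2 and chil-22 are lower without ADARs and overlap WT in eri-6, T05E12.6 is lower in all 3 mutants, and pmp-2 is lower in the triple mutant.

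Tissue markers differed between these groups as well. In whole worms, fewer cells of a type and less RNA per cell cannot be told apart. Of 10 intestine markers 4 were lower in the double mutant, and 8 each in eri-6 and the triple mutant, with summed levels of 1277, 881 and 633 FPKM in these mutants and 2964 FPKM in WT. All 8 oocyte and embryo markers measured were higher in the double mutant and in the triple mutant and 6 in eri-6, with sums of 764, 258 and 651 FPKM, against 124 in WT. Sperm markers were higher for 14 of 26 in the double mutant, 12 of 25 in eri-6 and 13 of 26 in the triple mutant, with sums of 289, 273 and 311 FPKM and 96.9 in WT. Of 6 germline markers 5 were higher in the double mutant, 0 in eri-6 and 5 in the triple mutant, and of 5 neuron markers 0 were called in any mutant. Of 5 muscle markers 1 was higher and 1 lower in the double mutant, 0 were called in eri-6, and 1 was lower in the triple mutant. Cuticle markers gave only 1 call, higher in the triple mutant, of 7 testable there. Among all genes tested the shares higher were 21.1%, 12.6% and 21.6% in the double mutant, eri-6 and the triple mutant. The shares lower were 14.8%, 7.39% and 18.4%. Their part in the total RNA values of the 9 loci was not tested.

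Genes of the double-stranded RNA and small RNA machinery were read from a list of 46. Of its 32 genes testable in total RNA, 24 were higher and 0 lower in the double mutant, 7 higher and 1 lower (eri-6 itself) in eri-6, and 19 higher and 2 lower in the triple mutant (eri-6 and the Argonaute gene sago-2). Over all genes tested, 21.1% were higher and 14.8% lower in the double mutant, 12.6% and 7.39% in eri-6, and 21.6% and 18.4% in the triple mutant. The tissue markers above moved in the same libraries, and their part was not tested. Dicer, dcr-1, had 13.1 FPKM in the double mutant, 4.66 in eri-6 and 15.2 in the triple mutant, against 3.03 in WT. The Argonaute gene ergo-1 had 15.6, 6.78 and 17.1 FPKM in these mutants, against 5.16 in WT. The binding protein gene rde-4 did not pass, at 54.4, 33.4 and 41.3 FPKM, against 22.9 in WT. In small RNA, 0 of the 43 list members were higher by the 4-fold rule in the double mutant, where 0.617% of all genes tested were. Lower ones were not counted for this list. For eri-6 limma called 0 of 43, where it called 0 of all 23380 genes.

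Poly(A) mRNA of the triple mutant gave a further view, with 1 library per genotype and food, so the values have no replicate check. The control libraries are the same in both mRNA tables and were scaled separately in each. None of the 9 loci differed by 4-fold on FPKM + 1 in any of 7 comparisons. Of 37161 genes, 1.08% were higher and 0.573% lower by that fold in the triple mutant than in WT on control bacteria. The shares were 0.893% and 0.506% between the libraries labelled drh-1 RNAi, and 0.888% and 0.517% on nrde-3 RNAi. Between the drh-1 label and control bacteria, 0.382% were higher and 1.05% lower in the triple mutant, and 0.358% and 0.396% in WT. Between nrde-3 RNAi and control bacteria they were 0.398% and 0.622% in the triple mutant, and 0.466% and 0.388% in WT. On control bacteria the triple mutant had higher values than WT at 3 of 9 loci, where 46.5% of 12310 genes of at least 1 FPKM were higher. The 9 loci were not filtered at 1 FPKM, here or in the mRNA counts and medians below, so the sets are unlike. Of these 3 loci irld-53 had only 0.397 FPKM in the triple mutant and 0.141 FPKM in WT. The cst-2 values were 0.912 and 0.974 FPKM. T05E12.6 had 28.6 FPKM in the triple mutant and 74.8 FPKM in WT, chil-22 had 1.41 and 3.58, and pmp-2 had 11.7 and 25.7. The ratios to WT of these 3 were 0.382, 0.393 and 0.454 in mRNA, and 0.296, 0.345 and 0.534 in total RNA. For F39E9.1 the ratio was 0.648 in mRNA and 0.323 in total RNA, and for C25F9.10 it was 0.842 and 0.448. In the same mRNA libraries the summed sperm markers were 235 FPKM in the triple mutant and 20.7 FPKM in WT, intestine markers 4993 and 9129 FPKM, and oocyte and embryo markers 4086 and 2337 FPKM. The part of these markers in the mRNA values was not tested.

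At Y46D2A.2 the assays disagreed. Its mRNA was 46.1 FPKM in the triple mutant and 31.4 FPKM in WT on control bacteria, a ratio of 1.47, whereas total RNA gave 0.0584. In the mRNA tables Y46D2A.2 and F39E9.1 share 1 merged locus of II:3304053-3337811 (17 genes in all), and how reads were divided among them was not tested. The mRNA locus of pmp-2 is likewise shared by 2 genes and that of Y105C5A.24 by 5. F39E9.1 had 2.01 FPKM in the triple mutant and 3.10 FPKM in WT. For Y105C5A.24 the values were 5.88 and 4.71 FPKM, and for C25F9.10 5.18 and 6.15 FPKM. The cst-2 and irld-53 mRNA was at most 1.06 FPKM in any library.

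The mRNA of pmp-2 was lower in the triple mutant on all 3 foods. It had 6.73 FPKM in the triple mutant and 13.1 FPKM in WT in the libraries labelled drh-1 RNAi, and 17.2 FPKM and 35.6 FPKM on nrde-3 RNAi, ratios of 0.513 and 0.484. T05E12.6 did not keep its difference in the libraries labelled drh-1 RNAi, with 54.6 FPKM in the triple mutant and 51.6 FPKM in WT. On nrde-3 RNAi it was lower in the triple mutant, with 64.6 FPKM and 99.7 FPKM, a ratio of 0.648. Over the 9 loci the median log2 fold of the triple mutant over WT was -0.21 on control bacteria, 0.20 in the libraries labelled drh-1 RNAi and 0.29 on nrde-3 RNAi, against -0.09, 0.05 and 0.06 over all genes of at least 1 FPKM.

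With nrde-3 RNAi, mRNA of all 9 loci was higher than on control bacteria in the triple mutant. F39E9.1, within the merged locus of 17 genes, had 7.54 FPKM on nrde-3 RNAi and 2.18 FPKM on control bacteria, a ratio of 3.45. Its log2 fold on FPKM + 1 was 1.42, where 1.34 was the value that 5% of genes exceeded. How reads were divided within that locus was not tested. C25F9.10 had 12.4 and 5.62 FPKM, T05E12.6 64.6 and 31.05 FPKM, and chil-22 3.16 and 1.52 FPKM, ratios of 2.203, 2.08 and 2.07. Y105C5A.24 had 11.1 and 6.38 FPKM. The smallest changes were at cst-2 and irld-53, with log2 folds of 0.02 and 0.11 from values of at most 1.02 FPKM.

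The median log2 fold of the 9 in that comparison was 0.72, against 0.11 over all 12488 genes of at least 1 FPKM, of which 55.3% were above 0. In WT the same food gave 5 of 9 loci above 0 and a median of 0.11, against -0.06 over all genes, of which 42.4% were above 0. F39E9.1 had 3.29 FPKM on nrde-3 RNAi and 3.37 FPKM on control bacteria in WT, and C25F9.10 had 6.60 and 6.68 FPKM. Summed intestine markers were 10241 FPKM on nrde-3 RNAi and 5443 FPKM on control bacteria in the triple mutant, and oocyte and embryo markers were 2229.5 and 4448 FPKM. Their part in the higher values was not tested.

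In the libraries labelled drh-1 RNAi, 6 of 9 loci were above control bacteria in the triple mutant and 3 of 9 in WT, where 50.3% and 37.0% of all genes of at least 1 FPKM were. Summed intestine markers were 14465 FPKM with this label and 4993 FPKM on control bacteria in the triple mutant, and 26919 and 9129 FPKM in WT. Muscle markers were 1984 and 869.9 FPKM in the triple mutant, and 1441 and 714 FPKM in WT, and the part of these markers was not tested. F39E9.1 had 5.69 FPKM in that library and 2.01 FPKM on control bacteria in the triple mutant, and 3.76 and 3.10 FPKM in WT. The pmp-2 mRNA was lower than on control bacteria in both genotypes, with 6.73 and 11.7 FPKM in the triple mutant and 13.1 and 25.7 FPKM in WT. The median log2 fold of the 9 was 0.15 in the triple mutant and -0.53 in WT, against 0.00 and -0.19 over all genes of at least 1 FPKM. Genes of the pathway list went in both directions with this label. In the triple mutant dcr-1 had 2.402 FPKM with the drh-1 label and 23.7 FPKM on control bacteria, and rde-1 had 3.44 and 24.8 FPKM. WT showed lower values too, with 4.75 and 11.2 FPKM for dcr-1 and 14.1 and 37.6 FPKM for rde-1. The Argonaute gene wago-4 was instead higher, with 83.6 and 41.4 FPKM in the triple mutant and 89.9 and 48.2 FPKM in WT.

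**Figure D4:**
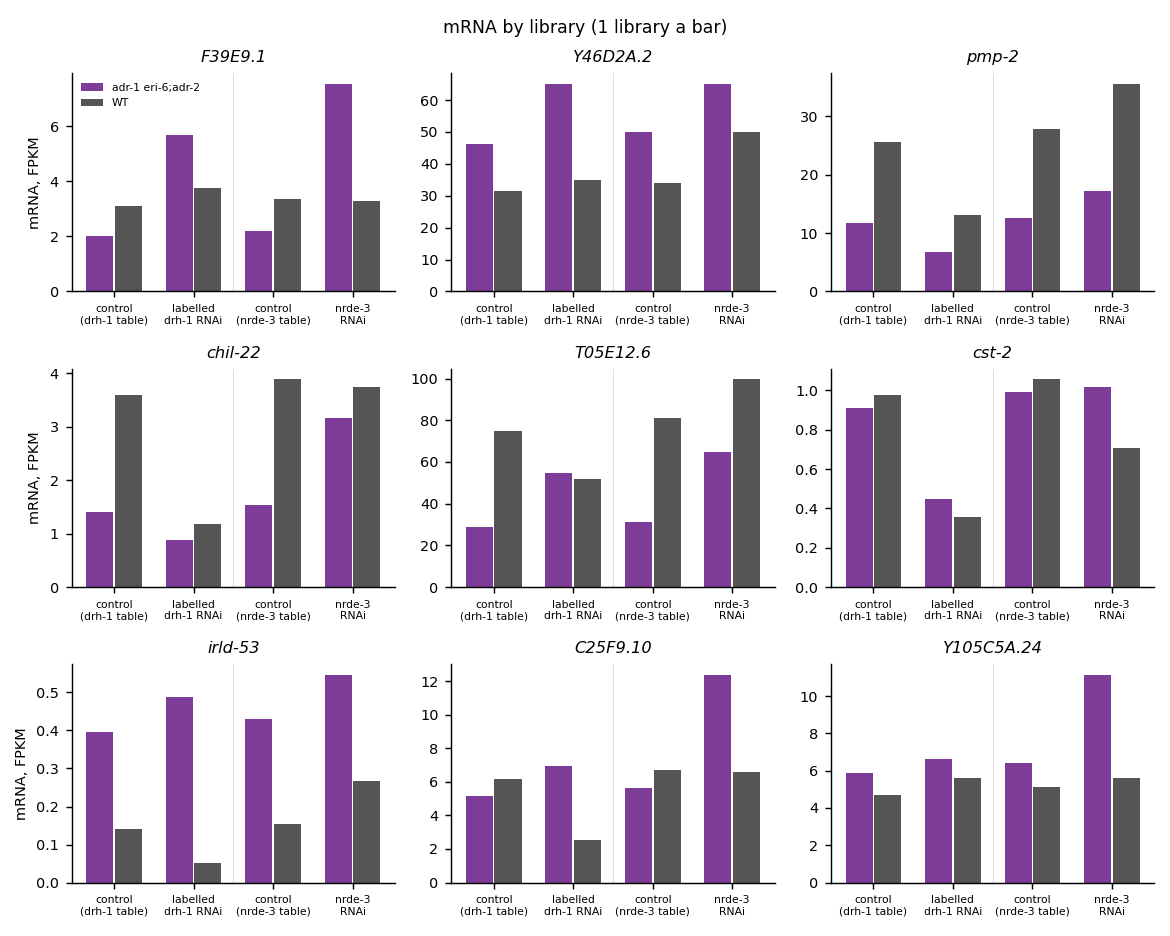
Poly(A) mRNA (FPKM, linear axes from 0) of the 9 loci in adr-1 eri-6;adr-2 and WT, 1 library a bar, for control bacteria and the libraries labelled drh-1 RNAi as scaled in one table and control bacteria and nrde-3 RNAi as scaled in the other. pmp-2 is lower in the triple mutant on all foods, and F39E9.1 is highest in the triple mutant on nrde-3 RNAi (7.54 FPKM).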

How the data were processed

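Trim Galore, BWA, featureCounts, DESeq2, TopHat2, Cufflinks, Cuffdiff and the build WBcel235 are named in the submitters' processing notes, without versions or settings. The small RNA signal values were deposited by the authors as normalised reads per gene, 1 table per mutant with the WT libraries, each table scaled separately. In the full tables (double mutant, eri-6) every value was a whole multiple of its library's value of 1 read (100.0% within 0.01 of a whole read), which gave the reads. The total RNA and mRNA FPKM values, with total RNA bounds, were deposited by the authors, from the Cufflinks and Cuffdiff step of the submitters' processing notes. How strands and multiply matching reads were handled was not given in the sources used here. IDs with several entries were left out of the FPKM tables.

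The eri-6 small RNA was tested with limma 3.58.1 (R 4.3.3) on log2(value + 1) with a mean of at least 10 and Benjamini-Hochberg adjustment, after a check on simulated data; edgeR 4.0.16 and DESeq2 1.42.0 were run on the recovered reads as alternatives. Tables were joined in Python 3.11.15 with RefSeq coordinates, which placed 46077 of 46780 gene IDs and all 9 loci. The total RNA rule, the 4-fold rules, alternative pseudocounts, filters and scalings, and leaving out each library were computed as described with the results. Named besides the loci were some of the genes next to them on either side and same-family genes meeting the 4-fold rule. A fixed set of pathway genes and the 5 genes most like F39E9.1 were named as well. The genes sago-2, wago-4, fbxc-5, fbxc-3, clec-25, C25F9.4, C25F9.9 and those of F14H12 were named after their values were seen. The limma results are given for all genes, and for the loci as folds with errors. The loci and all gene lists were chosen with earlier results of these data known.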

Additional observations from a re-analysis of the deposited data

Results flagged for a closer look

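With RNAi food, mRNA changed with opposite signs in the triple mutant and in WT at 5 of the loci that reached 1 FPKM, counted over both foods. Each rests on 1 library per condition, so the differences were not tested. Opposite signs were common, at 48.6% of 13136 genes with nrde-3 RNAi and at 39.7% of 12794 genes in the libraries labelled drh-1 RNAi. Higher in the triple mutant and lower in WT, as at these 5 loci, were 30.3% and 25.8%. Of all 9 loci, with no FPKM filter, 4 and 3 had opposite signs. With nrde-3 RNAi, F39E9.1 changed by 1.42 on the log2(FPKM + 1) scale in the triple mutant and by -0.03 in WT, a difference of 1.45. F39E9.1 lies in the merged mRNA locus of 17 genes described above. The other differences on this food were 1.03 at C25F9.10, 0.76 at chil-22 and 0.29 at cst-2, with WT changes of -0.01, -0.04 and -0.27. The first 2 of these WT changes and that of F39E9.1 are close to 0, and the median WT change of all genes was -0.06. In WT nrde-3 mRNA itself was 5.26 FPKM on nrde-3 RNAi and 5.75 FPKM on control bacteria. In the libraries labelled drh-1 RNAi, T05E12.6 changed by 0.91 in the triple mutant and by -0.53 in WT, a difference of 1.44, and C25F9.10 changed by 0.36 and -1.01, a difference of 1.37.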

How the results depend on the processing

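Of the results recomputed under other settings, 167 were labelled the same, 49 moved and 5 reversed in sign. A result could move without changing sign: C25F9.10 in adr-1;adr-2 counted as moved from 6.09 to 6.17 with joint scaling. By contrast, irld-53 counted as the same from 6.54 to 3.72 without BB4. Some settings could not alter a value, such as the replicate block for the adr-1;adr-2 folds, so the 167 do not measure stability. Called genes in eri-6 small RNA, 0 higher and 0 lower with limma, were 4 and 68 with a mean of at least 50, 8 and 98 with the replicate block, 15 and 125 with DESeq2, and 0 to 11 and 45 to 88 without 1 library. Correlations of same-numbered deviations were 0.60 (adr-1;adr-2) and 0.68 (eri-6) over only 2 pairs that the labels do not tie, so the block is no main result. Without 1 library the 4-fold rule gave 355 to 1541 genes higher and 72 to 460 lower in adr-1;adr-2, with 8 to 9 of the loci higher. In eri-6 it gave 73 to 1109 and 211 to 931, with 0 of the loci higher. Loci that were lower were not counted in these settings. With bounds at least 2-fold apart, total RNA had 909 genes higher and 608 lower in adr-1;adr-2, 495 and 306 in eri-6 and 951 and 899 in the triple mutant, with 1, 0 and 1 of the loci lower, each time Y46D2A.2. With a pseudocount of 0.5, mRNA beyond 4-fold gave 611 genes higher in the triple mutant than in WT on control bacteria and 204 higher in WT with the drh-1 label. Without 1 library the Y105C5A.24 fold was -1.54 (no BB4) to 6.34 in adr-1;adr-2 and -0.79 to 0.36 (no eri-6 replicate 2) in eri-6, and the eri-6 folds were -3.19 to 0.93 (F39E9.1), -2.88 to 0.97 (Y46D2A.2) and -1.81 to 0.66 (cst-2), the last 3 positive values without WT replicate 2. The cause was not tested. Few WT reads at most loci, and single mRNA libraries, limit precision.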
